A study of Mus musculus with 219 samples.

Results

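Rbm3 and Cirbp, the cold-inducible RNA-binding proteins, were followed through 2 tables of mouse prefrontal cortex RNA-seq. Both genes were taken by name, as 2 of 55487 gene identifiers in each table. Both passed the filter on low counts, among 17193 genes kept in the daily atlas and 18841 kept in the table labelled ZT6. Zeitgeber time (ZT) counts hours from lights-on.

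RBM3 and CIRBP are small RNA-binding proteins with an RNA recognition motif followed by a glycine-rich tail. Their transcripts rise when mammalian cells or tissues cool mildly and fall when they warm, and the daily cycle of body temperature is enough to drive Cirbp in cultured cells. CIRBP binds the 3' ends of transcripts, including that of Clock, and RBM3 is known in brain for promoting local translation and for protecting synapses in cooled animals.

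All libraries came from total RNA of the left prefrontal cortex, depleted of ribosomal RNA and prepared with a strand-marking kit. The atlas held 92 wild-type mice (Snord116+/+Ctg-/-, written WT/WT) of about 12 weeks, kept in home cages under 12 h light and 12 h dark and collected at 8 times of day, with 6 females and 6 males a time and 5 of each at ZT18 and ZT21. The second table held 126 libraries, all collected at ZT6, of 4 genotypes. Besides WT/WT, these were the deletion alone (HET/WT, written out as Snord116+/-Ctg-/-), the Ctg allele alone (WT/TG, or Snord116+/+Ctg+/-) and both together (HET/TG, or Snord116+/-Ctg+/-). Snord116 is a cluster of small nucleolar RNA genes in the region whose loss causes Prader-Willi syndrome. The labels do not say what the Ctg allele carries or which tissue drives it, nor which parent passed on the deletion. These mice entered incubators at 22 °C at about 8 weeks and were entrained to a short day with equal light and dark of 11 h (11:11) or to the usual 12:12. Those of the calorimetry set moved to metabolic cages after 22 days and were collected in constant darkness. No light came on for them, so ZT6 of that set is only the time its labels give. Those of the running wheel set moved to wheels after 15 days of a total of 22 and were collected under their light cycle. There were 4 mice for every genotype within each set, sex and light cycle, with 3 in 2 WT/TG groups (calorimetry males 11:11 and running wheel males 12:12). The labels call replicates biological without saying more, so p-values measure the spread between these samples.

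Total counts ran from 12995491 to 18420258 a library in the atlas and from 12737699 to 29856536 at ZT6. The deletion was checked with Snhg14, the host transcript of the cluster, and Ndn, a nearby imprinted gene: 63 of 64 libraries labelled with the deletion had Snhg14 at 20.2 to 69.3 CPM (the usual counts scaled to a fixed library size) and Ndn at 98.2 to 175.7, against 115.9 to 280.6 and 46.7 to 103.2 in the 62 others. The library labelled running wheel female 11:11 HET/WT replicate 3 had Snhg14 at 167.3 and Ndn at 82.6 CPM, against its label. Another 2 libraries stood apart in make-up: running wheel female 11:11 WT/TG replicate 1, with 40.3% of counts in 1 gene, and calorimetry male 11:11 HET/TG replicate 4, with 34.1% in mitochondrial genes. In bulk tissue, fewer cells of a type and less RNA per cell cannot be told apart.

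Rbm3 (ENSMUSG00000031167) lies on the minus strand of chromosome X at 8138975 to 8145880, and Cirbp (ENSMUSG00000045193) on the plus strand of chromosome 10 at 80165985 to 80172786, in GRCm38 with the GENCODE vM21 annotation. Raw counts of Rbm3 ran from 298 to 1035 in the atlas (median 617.5) and from 170 to 1889 at ZT6 (median 659). Cirbp counts ran from 280 to 836 (median 499.5) and from 135 to 1087 (median 453). The antisense gene Rbm3os overlaps the 5' end of Rbm3, and Rbm3-ps is a pseudogene of it elsewhere. They had at most 13 and 9 counts in any library. These counts do not show how many of their reads were assigned to Rbm3 instead. Per kilobase of exon, the Cirbp level was 12.6 ± 2.82 CPM and the Rbm3 level 8.61 ± 1.77 CPM in the atlas (SD, n = 92). At ZT6 the same length-scaled levels were 10.4 ± 2.98 and 8.76 ± 3.64 (SD, n = 126). Both genes were thus read well above counting noise in every library.

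The Cirbp promoter is shown because a short motif there, known as the mild cold response element, is the textbook link between this gene and temperature. The 250 bases before the first of 2 starts in the RefSeq table (GRCm38.p6, chr10:80167589-80167838, plus strand) follow, with capitals marking the element TCCCCGCC and the CCAAT boxes (ATTGG on the other strand).
Cirbp: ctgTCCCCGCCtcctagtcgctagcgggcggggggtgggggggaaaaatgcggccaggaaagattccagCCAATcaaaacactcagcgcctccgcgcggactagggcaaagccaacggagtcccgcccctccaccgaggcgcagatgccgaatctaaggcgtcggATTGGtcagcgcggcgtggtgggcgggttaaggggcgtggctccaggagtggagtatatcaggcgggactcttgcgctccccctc
The element lay 247 to 240 bases before the start, and the CCAAT boxes lay 181 to 177 bases before it on the gene's strand and 85 to 81 bases before it on the other. On both strands, TCCCCGCC was found in 4.64% of 32851 promoter windows of all genes, and CCAAT in 33.8%. GGGCGG, the GC box bound by Sp1, was found 3 times in the window shown and in 32.7% of all windows, and it does not overlap the element. The E-box CACGTG (6.02% of windows) and the heat shock pair GAANNTTC (6.69%) had no match in either window. The window of the second start (chr10:80167921-80168170) held neither the element nor a CCAAT box. These matches describe letters in the window shown and not binding. Both windows lie inside the GENCODE span of Cirbp, which begins at 80165985, and the bases before that start were not searched. For Rbm3, the gene is named only.

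Both genes cycled over the day in wild-type cortex, high around the light-to-dark change and low around lights-on, and Cirbp turned earlier than Rbm3. Cirbp was lowest at ZT21, with CPM from 20.7 to 32.6 (median 24.8, 25.5 ± 3.51 SD, n = 10). It was highest at ZT9, from 31.2 to 52.2 (median 43.4, 42.7 ± 6.67, n = 12). The ZT9 and ZT21 ranges overlapped only between 31.2 and 32.6 CPM. Rbm3 was lowest at ZT3, from 18.3 to 39.8 CPM (median 32.7, 31.5 ± 6.43, n = 12), and highest at ZT9, from 32.6 to 59.0 (median 49.5, 48.4 ± 7.08, n = 12). Its ranges at these times overlapped more widely than those of Cirbp.

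The order of the daily means differed between the genes. For Cirbp, ZT9 was followed by ZT12 (37.8 ± 4.25 CPM, SD), ZT6 (36.8 ± 5.61) and ZT15 (32.6 ± 4.53). Lower again came ZT3 (29.4 ± 4.27), ZT0 (27.7 ± 4.02), ZT18 (27.2 ± 4.68) and ZT21. For Rbm3, ZT9 was followed by ZT12 (46.8 ± 5.90) and ZT15 (46.4 ± 5.05), a plateau that ran into the dark phase. Below it came ZT18 (40.6 ± 5.60), ZT6 (39.2 ± 5.53), ZT0 (35.7 ± 3.78), ZT21 (33.9 ± 7.42) and ZT3. Of all neighbours in these 2 orders, only ZT15 and ZT18 of Rbm3 differed by more than the larger of their SDs (5.80 against 5.60).

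**Figure D1:**
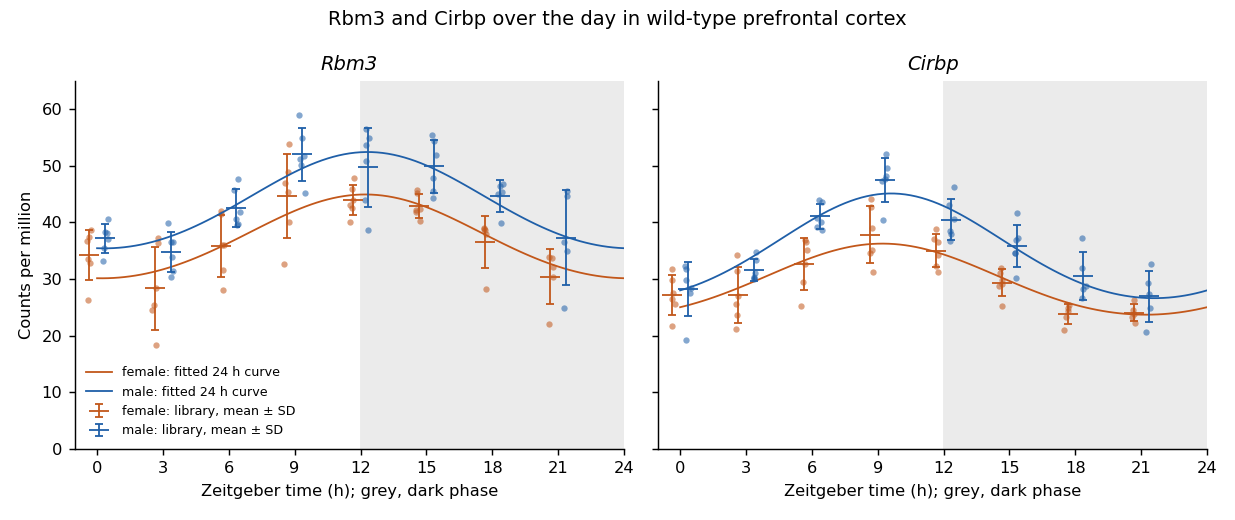
Level (CPM) of Rbm3 (left) and Cirbp (right) against zeitgeber time in 92 wild-type libraries, 1 point a library, with the mean and SD of each sex and the fitted 24 h curve. Cirbp turned down after ZT9 while Rbm3 stayed near its highest level through ZT15.

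A fit of a 24 h cycle, shared by the sexes, put the Cirbp peak at ZT9.43 (95% interval 8.88 to 9.97) and the Rbm3 peak at ZT12.3 (11.5 to 13.1). The intervals of the 2 peak times did not overlap. The fitted peak-to-trough difference was 0.69 on the log2 scale for Cirbp (0.59 to 0.79, a 1.61-fold range) and 0.57 for Rbm3 (0.46 to 0.69, 1.49-fold). Both passed the test (edgeR quasi-likelihood, Benjamini-Hochberg adjusted p = 8.22e-20 for Cirbp, rank 13 of all genes, and 1.29e-12 for Rbm3, rank 92). The background is wide, since 41.4% of the genes tested were called rhythmic. The median peak-to-trough difference over all genes was 0.14.

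Between adjacent times, both genes rose from ZT3 to ZT6, by 0.31 ± 0.08 log2 for Rbm3 (SE, edgeR adjusted p = 0.0103) and 0.32 ± 0.07 for Cirbp (adjusted p = 0.00141), where 3.75% of genes were called. Without replicate 1, 3 or 5, the Rbm3 step was 0.29, 0.27 and 0.23 (edgeR adjusted p = 0.0585, 0.146 and 0.13). From ZT12 to ZT15, Cirbp fell by 0.22 ± 0.07 (adjusted p = 0.0323) while the Rbm3 difference was -0.02 (adjusted p = 0.939), with 7.64% of genes called. The Cirbp step was -0.19 without replicate 2 (edgeR adjusted p = 0.158) and -0.14 without replicate 3 (adjusted p = 0.353). The other steps passed for neither gene (from ZT21 to ZT0, 1.2% of genes called, from ZT0 to ZT3, 2.43%, from ZT9 to ZT12, 0.111%, from ZT15 to ZT18, 0.163%, and from ZT18 to ZT21, 0.0116%). The Rbm3 step from ZT6 to ZT9, 0.30, missed the threshold (edgeR adjusted p = 0.0572, 0.204% of genes called).

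The ratio of the genes also moved over the day. The mean log2 ratio of Rbm3 to Cirbp counts was 0.09 at ZT3 and at ZT6, then 0.18 at ZT9, 0.31 at ZT12, 0.52 at ZT15 and 0.58 at ZT18. It stood at 0.39 at ZT21 and 0.37 at ZT0. A 24 h curve fitted to the ratio had a peak-to-trough difference of 0.47 log2 with its peak at ZT17.7 (n = 92, permutation of times within each sex, one-sided for the size of the curve, p = 1e-05, the smallest possible). The genes differ in length, so only the change of the ratio over time can be read.

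Males had the higher mean of both genes at 8 of 8 times. In the atlas, all male libraries were named in a series A and all female libraries in a series B. The labels do not say what the series are, and a difference between them cannot be told apart from sex. Rbm3 was at 43.6 ± 7.83 CPM in males and 37.3 ± 7.60 in females (SD, n = 46 each), and Cirbp at 35.6 ± 7.65 and 29.9 ± 5.83. Fitted with time, the male-minus-female difference was 0.23 ± 0.04 log2 for Rbm3 (SE, edgeR adjusted p = 1.46e-06) and 0.25 ± 0.03 for Cirbp (adjusted p = 8.17e-09), among 41.7% of genes called and 21.3% higher in males. The sexes overlapped at most times: all males lay above all females at 1 time for Rbm3 (ZT18) and at 2 for Cirbp (ZT6 and ZT18). The cycle itself peaked at ZT12.2 in females and ZT12.3 in males for Rbm3, and at ZT9.21 and ZT9.60 for Cirbp. A difference of the cycle between the sexes passed for neither (edgeR adjusted p = 0.999 and 0.879, 0.0756% of genes called). Beside the sex difference in level, all 5 striatal neuron markers fell in males, with a median of -1.57 log2 and a summed level of 107 to 1053 CPM in females and 85.6 to 372 in males. All 5 blood markers rose (median 0.35, 57.5 to 163 CPM in females and 85.04 to 539 in males). Their part in the result was not tested.

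Lists of related genes were set beside these cycles. Whether body temperature has a part in any of these cycles was not tested. Heat shock genes, which encode chaperones such as Hspa8 and Dnajb1 and are known to respond to warming, stood at the other side of the day. Of these, 16 of 18 were called rhythmic, with fitted peaks from ZT18.5 (Dnajb1) to ZT22.9 (Hspe1). Over all genes, 41.4% were called rhythmic. Dnajb1, an HSP70 co-chaperone, had a peak-to-trough difference of 0.42 log2 (edgeR adjusted p = 1.89e-15), and Hsph1, a nucleotide exchange factor of HSP70, 0.29 (4.31e-14). From ZT3 to ZT6, when both members rose, 9 of the 18 fell (median -0.12, all genes 0.00, 3.75% of genes called). From ZT12 to ZT15, when Cirbp fell, 11 rose (median 0.17, all genes -0.00, 7.64% of genes called). In the window from ZT6 up to ZT15, taken after seeing the data because it holds both members' peaks, lay 0 of the 16 rhythmic heat shock genes and 35.5% of all 7117 genes called rhythmic.

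Of 14 tested splicing regulators known to respond to temperature, such as the CLK kinases and SR proteins, 9 were called rhythmic, where 41.4% of all genes were, and 1 of these, Srsf5, peaked in that window (ZT6.76). Tra2a and Srsf10, splicing factors of the SR family, had peak-to-trough differences of 0.40 and 0.39. Of 10 relatives with the same recognition motif, 7 were called, among them Hnrnpa1 at 0.14 with a peak at ZT8.09. Of 7 genes for cold shock domain proteins, a different and older RNA-binding fold, 3 were called. They included Csdc2 and Ybx1, each with a peak-to-trough difference of 0.13. This share of 3 in 7, like the 6 of 12 partners, is near that of all genes. All 19 core clock genes were called, led by Ciart (1.81) and Dbp (1.39), both with fitted peaks at ZT12.0, and Per2 (1.34) at ZT16.8. Among 12 proposed partners and targets of RBM3 and CIRBP, 6 were called, and Per2 and Per3 (0.59) had the smallest p. In the same window from ZT6 up to ZT15 lay 4 of the 7 relatives called, 9 of the 19 clock genes, 1 of the 3 cold shock domain genes and 1 of the 6 partners. The list medians of the peak-to-trough difference were 0.20 for heat shock, 0.11 for splicing, 0.09 for the relatives, 0.13 for the cold shock domain, 0.10 for the partners and 0.62 for the clock, against 0.14 over all genes.

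**Figure D2:**
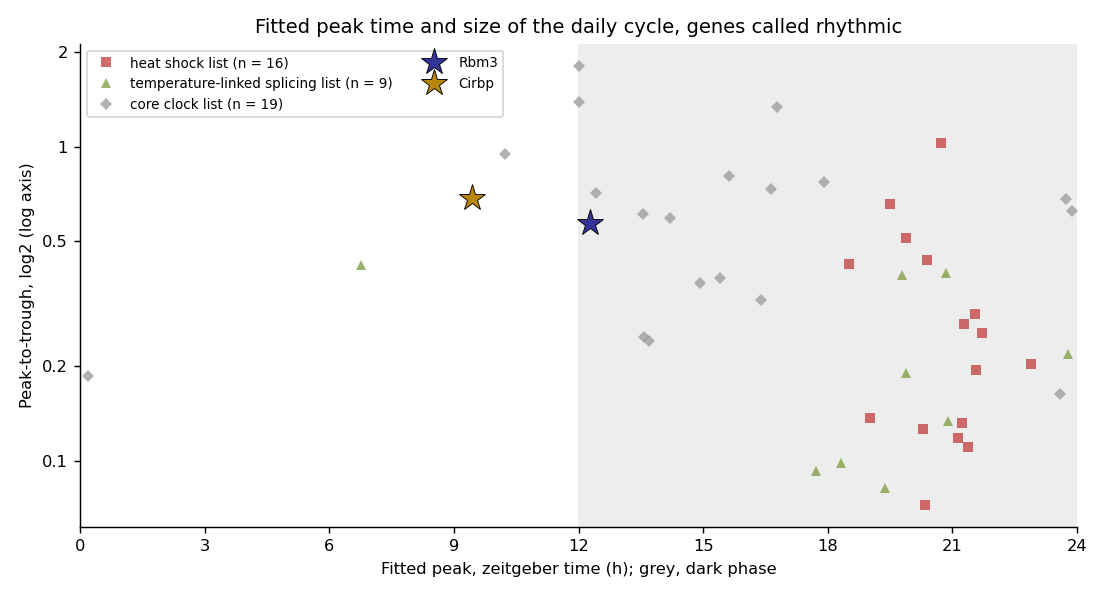
Fitted peak time (zeitgeber time, h) against peak-to-trough difference (log2, log axis) of genes called rhythmic in the atlas, with Rbm3 and Cirbp as stars and listed genes by colour. The 16 heat shock genes lie between ZT18.5 and ZT22.9, away from Cirbp at ZT9.43 and Rbm3 at ZT12.3.

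The Snord116 deletion went with a lower level of Rbm3 at ZT6. In WT/WT the level was 45.9 ± 18.2 CPM and in HET/WT 37.9 ± 15.4 (SD, n = 32 each), in WT/TG 42.1 ± 17.9 (n = 30) and in HET/TG 38.7 ± 16.5 (n = 32). These SDs hold the gaps between sets and sexes, so values within a combination show more. The separation was clearest in 2 combinations. In calorimetry males 11:11, WT/WT libraries had 72.1 to 76.7 CPM and HET/WT libraries 45.1 to 73.1 (n = 4 each). In running wheel females 12:12, WT/WT had 32.2 to 43.8 CPM and HET/WT 22.0 to 32.4. Even there the ranges met, and in running wheel males 12:12 they coincided, with 19.9 to 29.5 CPM in WT/WT and 18.1 to 30.7 in HET/WT. The mean was lower in HET/WT in 8 of 8 combinations of set, sex and light cycle.

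Fitted over all combinations, Rbm3 in HET/WT against WT/WT was at -0.27 ± 0.05 log2 (SE, edgeR adjusted p = 0.01), 17.03% lower, in a comparison in which 0.0425% of genes were called. The same contrast on the transgene background, HET/TG against WT/TG, which shares no library with the first, was at -0.14 ± 0.06 (adjusted p = 0.366, 0.0796% called), lower in 6 of 8 combinations. Averaged over the transgene, the deletion difference was -0.20 ± 0.04 (adjusted p = 0.00192, rank 9 of all genes), and Rbm3 was lower in 8 of 8 combinations, among 0.218% of genes called and 0.159% called lower. The difference between the 2 deletion contrasts was 0.13 ± 0.08 (95% interval -0.02 to 0.28, adjusted p = 0.874), so they were not shown to differ. Without the library against its label, the averaged difference was -0.21 (edgeR adjusted p = 0.000496) and that of HET/WT was -0.29 (0.00152). The call of HET/WT against WT/WT was lost without replicate 2, 3 or 4 (-0.26, -0.25 and -0.28, edgeR adjusted p = 0.296, 0.355 and 0.0643). It was lost too with the calorimetry set alone (-0.26, edgeR adjusted p = 0.624) and with the running wheel set alone (-0.28, edgeR adjusted p = 0.38). The averaged call was lost with the calorimetry set alone (-0.18, adjusted p = 0.243) and with the running wheel set alone (-0.22, adjusted p = 0.0861).

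Cirbp had smaller deletion differences in the same direction. Its levels were 29.01 ± 7.30 CPM in WT/WT, 25.8 ± 6.31 in HET/WT, 28.1 ± 9.54 in WT/TG and 25.8 ± 7.53 in HET/TG (SD). The averaged deletion difference was -0.15 ± 0.04 log2 and missed the threshold (edgeR adjusted p = 0.0692), with means lower in 7 of 8 combinations. It passed in DESeq2 (-0.14, adjusted p = 0.0374) and when each library's length slope, described further on, entered the model (-0.16, edgeR adjusted p = 0.0161). HET/WT against WT/WT was at -0.17 ± 0.05 (adjusted p = 0.558), and HET/TG against WT/TG at -0.12 ± 0.06 (adjusted p = 0.433).

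The transgene alone moved neither gene past the threshold: WT/TG against WT/WT was at -0.12 for Rbm3 and -0.05 for Cirbp (edgeR adjusted p = 1 for both, 0.0159% of genes called). HET/TG against HET/WT was at 0.01 and -0.01 (0.0106% of genes called). HET/TG against WT/WT, which shares its WT/WT libraries with the contrasts above, was at -0.26 ± 0.05 for Rbm3 (edgeR adjusted p = 0.0151, 0.0478% called) and -0.17 ± 0.05 for Cirbp (adjusted p = 0.547). Leaving out any 1 replicate number ended this Rbm3 call (adjusted p from 0.057 to 0.84).

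**Figure D3:**
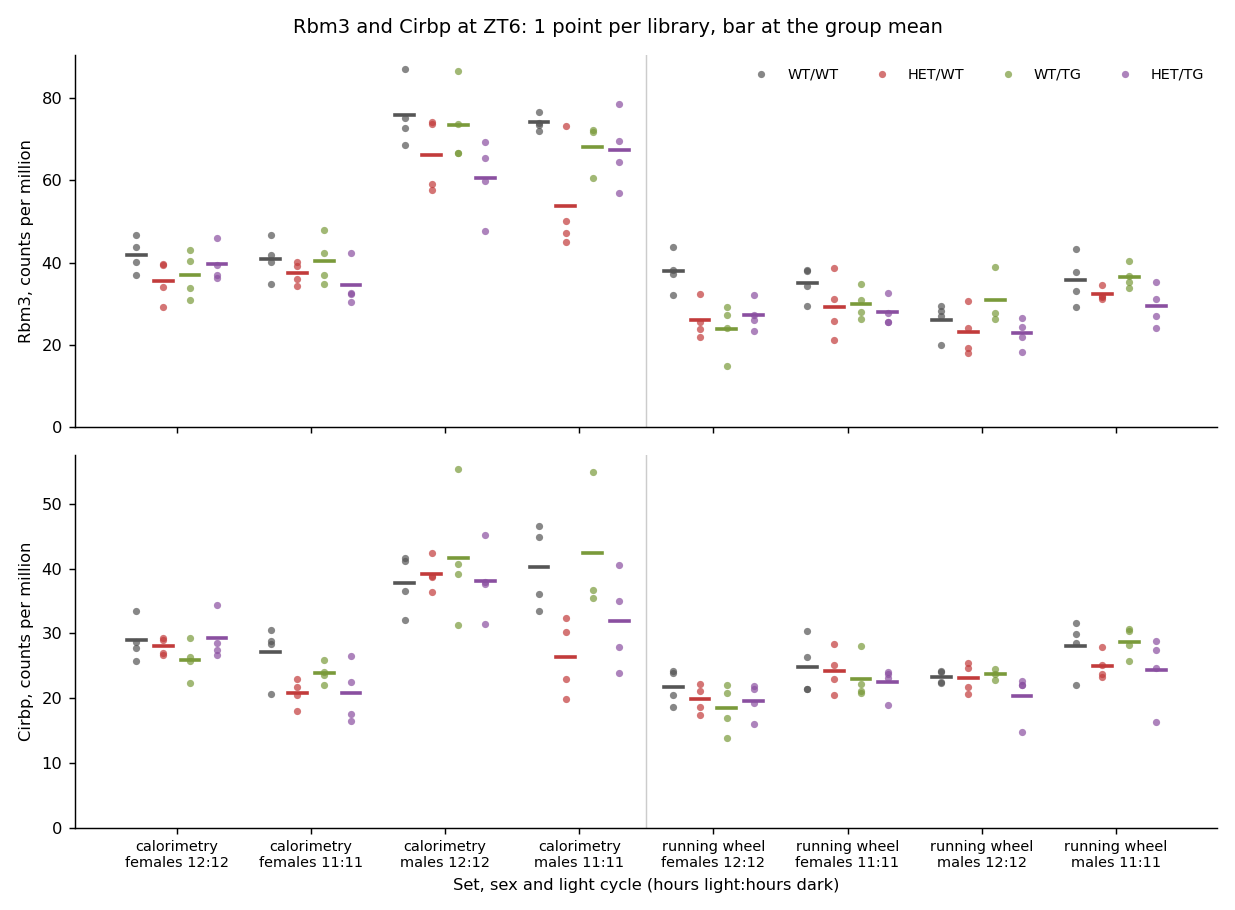
Level (CPM) of Rbm3 (top) and Cirbp (bottom) at ZT6, 1 point a library and a bar at each group mean, by set, sex, light cycle and genotype. Calorimetry males lie highest for both genes, and genotypes overlap in most combinations.

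The deletion difference was read within each combination as well. For Rbm3 it ranged from -0.31 in running wheel males 12:12 (28.2 ± 5.67 CPM without the deletion, n = 7, and 22.9 ± 4.43 with it, n = 8) to -0.07 in calorimetry females 12:12 (39.5 ± 5.27 and 37.6 ± 4.89, n = 8 each), and passed in none of the 8. Over all genes, 0.828% were called in calorimetry males 12:12, 0.531% in calorimetry males 11:11, 0.0584% in running wheel females 11:11, 0.0265% in running wheel males 12:12 and 0.0212% in each of the other four. For Cirbp it passed in 1 of 8, calorimetry males 11:11, where levels with the deletion ran from 19.9 to 40.6 CPM (29.1 ± 6.87, n = 8) and those without from 33.5 to 54.9 (41.1 ± 7.84, n = 7). Most deletion libraries there lay below the others, with some overlap. The difference was -0.51 ± 0.11 log2 (edgeR adjusted p = 0.00954). It was -0.49 without the 2 libraries that stand apart (adjusted p = 0.0509), -0.42 without replicate 2 (0.0928) and -0.43 without replicate 4 (0.234). Rbm3 in the same mice was at -0.24 (adjusted p = 0.262).

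Whether the deletion difference depended on light cycle, sex or set was tested for both genes. For Rbm3 the interactions were -0.01 with light cycle, -0.10 with sex and 0.05 with set. For Cirbp they were -0.23 ± 0.08 with light cycle (edgeR adjusted p = 0.417), -0.14 with sex and -0.10 with set. edgeR called 0 genes in each of these and in the deletion by transgene test, although before adjustment 1554, 894, 1227 and 1056 genes had a p under 0.05. In the same order, 1, 0, 1 and 1 genes passed in DESeq2, and 0 in each with limma-voom.

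Around the deletion difference, the related lists moved little. Of all listed genes, Tardbp, which encodes TDP-43, rose by 0.08 (edgeR adjusted p = 0.0424) and Hnrnph1, a splicing regulator, by 0.12 (adjusted p = 0.0157). Both went up where Rbm3 went down. No other listed gene was called, and the medians were 0.04 for heat shock, 0.05 for splicing and -0.00 over all genes. The 2 tested genes on each side of Rbm3 (Was, Wdr13, Tbc1d25, Ebp) and of Cirbp (Atp5d, Midn, 1600002K03Rik, Efna2) were not called for the deletion. Midn, which lies beside Cirbp and encodes midnolin, cycled with a peak-to-trough difference of 0.56 in the atlas (edgeR adjusted p = 7.68e-09). Its fitted peak was at ZT19.0, against ZT9.43 for Cirbp, and 41.4% of all genes were called rhythmic. No marker of another cell type was called for the deletion. The largest list medians were 0.47 for choroid plexus, 0.35 for striatal neurons and -0.19 for blood.

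The light cycle went with opposite differences of Cirbp in the 2 sets. In the running wheel set, Cirbp was higher under 11:11, from 16.4 to 31.6 CPM (median 24.9, 25.1 ± 3.84, n = 32), than under 12:12, from 13.8 to 25.4 (median 22.0, 21.2 ± 2.97, n = 31). In the calorimetry set it was lower under 11:11 (28.7 ± 9.19 CPM) than under 12:12 (33.6 ± 7.26). The ranges overlapped in both sets. The mean was higher under 11:11 in 8 of 8 groups of sex and genotype in the running wheel set and in 2 of 8 in the calorimetry set.

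The fitted difference of Cirbp, 11:11 minus 12:12, was 0.24 ± 0.06 log2 in the running wheel set (edgeR adjusted p = 0.0408, 0.069% of genes called, 0.0531% higher) and -0.23 ± 0.05 in the calorimetry set (adjusted p = 0.000678, 19.6% called). Their difference, the light cycle by set interaction, was -0.47 ± 0.08 (adjusted p = 2.75e-05, rank 10 of all genes, 5.32% called). Averaged over sets it was 0.00 (adjusted p = 0.966, 12.6% called). The interaction passed in 12 of 12 alternatives (-0.55 to -0.37). The running wheel call of Cirbp held in DESeq2, with no filter, with the length slope and without replicate 1. Over all comparisons, the fit with no filter gained 15 member calls and lost 1, so passing there is a weak check. The running wheel call of Cirbp was lost without replicate 2, 3 or 4 (edgeR adjusted p = 0.556, 0.581 and 0.148) and without the library against its label (0.0875). It was lost too without the 2 libraries that stand apart (0.0567), with RLE scaling (0.0574) and with limma-voom (0.0881). The calorimetry call passed in 11 of 12 and was -0.12 once the length slope entered the model (edgeR adjusted p = 0.175).

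Rbm3 passed the test in the running wheel set and missed it in the calorimetry set. In the running wheel set its level was 21.2 to 43.2 CPM under 11:11 (median 31.8, 32.02 ± 5.17, n = 32) and 14.8 to 43.8 under 12:12 (median 26.5, 27.1 ± 6.54, n = 31), with wide overlap. The difference was 0.25 ± 0.06 (edgeR adjusted p = 0.0408), higher in 7 of 8 groups of sex and genotype. It passed in 7 of 12 alternatives, and was lost without replicate 1, 2 or 3 (edgeR adjusted p = 0.432, 0.556 and 0.659), without the library against its label (0.093) and with RLE scaling (0.0584). In the calorimetry set, Rbm3 was at 51.6 ± 16.3 CPM under 11:11 and 53.8 ± 17.4 under 12:12, a difference of -0.04 (95% interval -0.15 to 0.06, adjusted p = 0.644). The light cycle by set interaction of Rbm3 was -0.29 ± 0.08 (adjusted p = 0.0135). It was lost without replicate 2 (-0.27, adjusted p = 0.087), without replicate 3 (-0.21, 0.274) and with the length slope (-0.26, 0.0634). Averaged over sets, Rbm3 was at 0.10 ± 0.04 (adjusted p = 0.0659).

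By sex, the running wheel difference of Rbm3 was 0.39 ± 0.08 in males, the smallest p of all genes in that comparison (edgeR adjusted p = 0.0866), and 0.11 in females (adjusted p = 0.692). In males edgeR called 0 genes (749 before adjustment at 0.05) and limma-voom 0, and DESeq2 called 1. That gene was Rbm3 (adjusted p = 0.0194). In calorimetry females Cirbp fell by 0.29 under 11:11 (edgeR adjusted p = 0.00595, 12.3% called), and the difference in males was -0.18 (adjusted p = 0.104, 13.5% called). In females it was -0.14 with the length slope (adjusted p = 0.355), -0.23 without replicate 2 (0.126) and -0.27 without replicate 4 (0.0844). The light cycle by sex interaction passed for neither gene (0.11 for Rbm3 and 0.04 for Cirbp, 5.54% called).

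Other genes moved with the light cycle beside them. Per2, a core repressor of the clock, had an 11:11 minus 12:12 difference of 1.01 ± 0.10 in the calorimetry set (edgeR adjusted p = 8.55e-13) and 0.11 ± 0.10 in the running wheel set (adjusted p = 0.915), with an interaction of 0.90 ± 0.14 (adjusted p = 1.94e-05). Heat shock genes rose in the calorimetry set, 11 of 18 (median 0.15, all genes -0.01), where Cirbp fell and 19.6% of all genes were called. In the running wheel set 0 of 18 were called by edgeR (median 0.02, all genes 0.00). Of the 14 splicing regulators, 8 had a positive light cycle by set interaction (median 0.18), as had 4 of 18 heat shock genes (median 0.13), among 5.32% of all genes called in either direction. In the calorimetry set, 3 of 5 blood markers were called lower under 11:11 (median -0.46) and 1 of 5 striatal markers (median -0.48). Their part in the Cirbp difference was not tested.

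Both members were higher in the calorimetry set than in the running wheel set. Rbm3 in calorimetry males ran from 45.1 to 87.0 CPM (median 69.5, 67.4 ± 10.6, n = 31), above every running wheel male (18.1 to 43.2, median 29.5, 29.6 ± 6.57, n = 31). In females it ran from 29.2 to 48.0 (median 39.3, 38.4 ± 4.99, n = 32) in calorimetry and from 14.8 to 43.8 (median 28.6, 29.6 ± 6.22, n = 32) on wheels. These female ranges overlapped. Cirbp had the same order with less distance. In males it was at 37.01 ± 7.98 CPM in calorimetry (19.9 to 55.4) and 24.6 ± 3.85 on wheels (14.8 to 31.6). In females it was at 25.6 ± 4.29 (16.4 to 34.4) and 21.8 ± 3.56 (13.8 to 30.4).

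Calorimetry minus running wheel was 1.20 ± 0.06 log2 in males and 0.39 ± 0.05 in females for Rbm3, and 0.59 ± 0.06 and 0.23 ± 0.05 for Cirbp. All 4 passed (edgeR), in comparisons in which 65% of genes were called in males and 43.6% in females. Over both sexes it was 0.79 for Rbm3 and 0.41 for Cirbp, with 62.2% of genes called, and male minus female over both sets was 0.40 and 0.35, with 58.1% called. The sex difference differed between sets accordingly. Rbm3 was higher in males by 0.80 ± 0.05 in the calorimetry set (adjusted p = 2.44e-25, 63.1% called) and at -0.00 in the running wheel set (95% interval -0.11 to 0.10, adjusted p = 0.965, 33.8% called), a sex by set interaction of 0.81 ± 0.08 (adjusted p = 6.33e-16, 51.8% called). Cirbp was higher in males in both, by 0.54 ± 0.05 and 0.17 ± 0.06 (adjusted p = 8.32e-16 and 0.00891), with an interaction of 0.36 ± 0.08 (adjusted p = 3.01e-05). The running wheel sex difference of Cirbp was lost without replicate 2 (0.14, adjusted p = 0.0776) and replicate 3 (0.15, 0.0614). The set was one with the apparatus and with collection in constant darkness or under a light cycle, and these cannot be told apart.

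The length slope of each library, the slope of log2 CPM on log exonic gene length, moved with set and sex. Whether it measures RNA quality was not tested. In calorimetry males it ran from 2.09 to 2.54 and in calorimetry females from 2.55 to 2.93. In running wheel males it ran from 2.53 to 2.86 and in running wheel females from 2.87 to 3.19. With that slope as a covariate, the set difference of Cirbp was -0.00 (edgeR adjusted p = 0.99), its sex difference -0.03 (0.891) and its sex by set interaction 0.13 (0.305). For Rbm3 the set difference was then 0.69 (adjusted p = 4.58e-06), the sex by set interaction 0.75 (1.59e-09), the sex difference within calorimetry 0.68 (0.000587) and the sex difference over both sets 0.30 (0.0576). So the Cirbp calls for set and sex were lost with the covariate, and of these Rbm3 calls the sex difference over both sets was lost. The slope tracks set and sex closely, and its part in these differences cannot be told apart from theirs. Blood markers also rose in calorimetry (4 of 5, median 1.06 log2), at 109 to 376 CPM in calorimetry males and 63.3 to 174 in running wheel males. Other marker lists moved with the set in males too, where 65% of all genes were called. Of 5 oligodendrocyte markers 4 rose (median 0.25), with a summed level of 3780 to 7525 CPM in calorimetry and 2143 to 3942 on wheels. All 5 striatal neuron markers fell (median -1.07), 4 of 5 choroid plexus markers fell (median -1.82), and so did 3 of 4 markers of oligodendrocyte precursors (median -0.43, 59.6 to 102 CPM against 92.5 to 125). Members of the other lists were called in both directions, with summed levels in calorimetry and on wheels of 4080 to 7035 and 3597 to 4974 CPM for excitatory neurons and 224 to 416 and 238 to 313 for endothelial and mural cells. Within calorimetry, 5 of 5 blood markers and 3 of 5 oligodendrocyte markers were higher in males, and 4 of 5 striatal markers lower, where 63.1% of all genes were called. In lists this short, counts of 3 of 5, 3 of 4 or 4 of 5 are not far from the shares of all genes. The part of these markers was not tested.

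**Figure D4:**
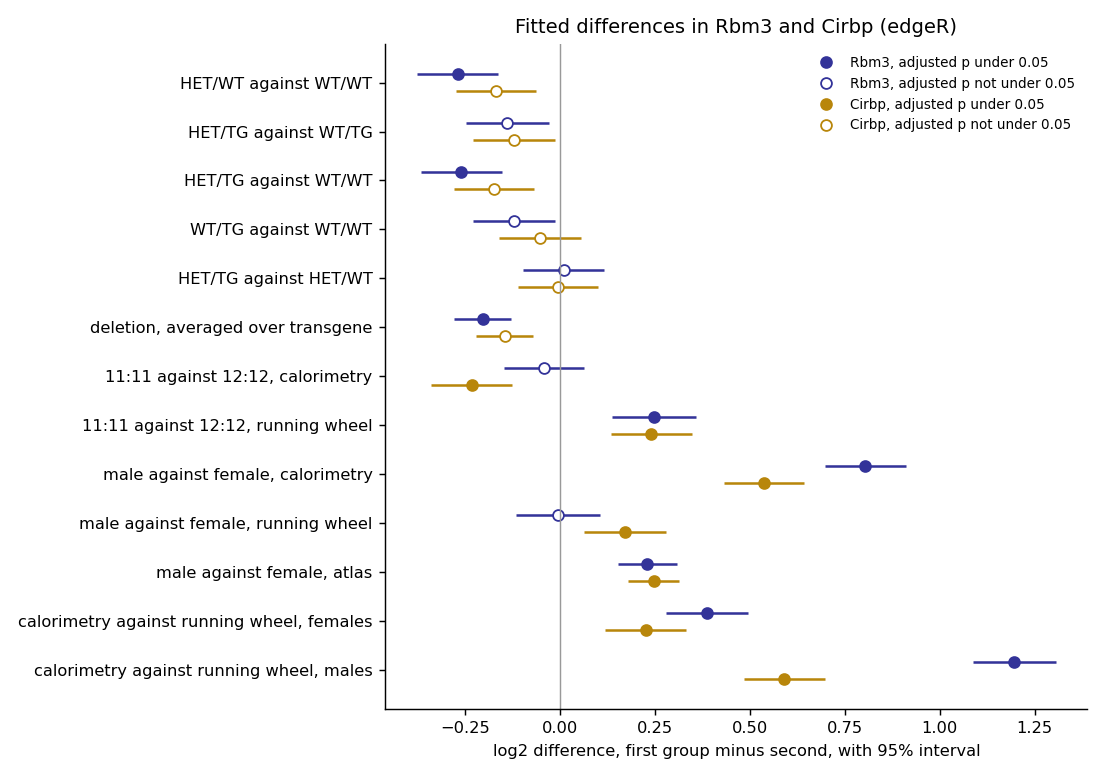
Fitted log2 differences of Rbm3 and Cirbp with 95% intervals, 1 line a comparison, filled where the edgeR adjusted p was under 0.05. Among the comparisons drawn, Rbm3 spans -0.27 (HET/WT against WT/WT) to 1.20 (calorimetry against running wheel, males), and the Cirbp light cycle difference is below 0 in the calorimetry set and above 0 in the running wheel set.

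The ratio of the members was compared at ZT6 as well. The log2 ratio of Rbm3 to Cirbp, adjusted for the other factors, differed by 0.39 between calorimetry and running wheel (two-sided permutation test, p = 1e-05, the smallest that 100000 resamples can give, adjusted p = 5e-05 over 5 comparisons). It differed by 0.11 between 11:11 and 12:12 (permutation p = 0.0149, adjusted p = 0.0373). Within combinations, the mean ratio under 11:11 and 12:12 was 0.74 ± 0.18 and 0.46 ± 0.14 in calorimetry females, and 0.95 ± 0.29 and 0.82 ± 0.29 in calorimetry males (SD). On wheels it was 0.36 ± 0.19 and 0.50 ± 0.23 in females, and 0.34 ± 0.22 and 0.15 ± 0.29 in males, so the light cycle difference had the opposite sign in running wheel females. The set difference was not general either. In females under 12:12 the mean ratio was 0.46 in calorimetry and 0.50 on wheels. It was higher in calorimetry in the other combinations of sex and light cycle. The ratio was not refitted with the length slope. The ratio difference was -0.06 for the deletion (adjusted p = 0.276), 0.05 for sex at ZT6 (0.352) and -0.01 for sex in the atlas (0.849). The value for sex at ZT6 averages opposite signs, since under both light cycles the mean ratio was higher in males in calorimetry and lower in males on wheels.

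Animals that were high in one gene for their group tended to be high in the other. After each group mean was taken out, the deviations of Rbm3 and Cirbp (log2 CPM) correlated across 92 atlas animals with Pearson r = 0.61 and Spearman rho = 0.55 (permutation p = 1e-05 for both, the smallest possible, adjusted p = 2e-05 over 8 relations). Without the 2 animals farthest from the median r was 0.54. Across 126 animals at ZT6, r was 0.48 and rho 0.46 (permutation p = 1e-05 for both), and 0.44 without such 2. Within sets and sexes, r was 0.60 in atlas females, 0.63 in atlas males, 0.65 in calorimetry females and 0.75 in running wheel females. In calorimetry males it was 0.30 (rho 0.27) and in running wheel males 0.29 (rho 0.19), where the permutation test did not pass (adjusted p = 0.108 for both). Without the 2 animals farthest from the median, r in running wheel males was 0.38 and passed (permutation test, adjusted p = 0.0444). The rank correlation of the same animals did not pass (rho 0.30, permutation p = 0.112 before adjustment). Both genes were read in the same libraries, and what differences between libraries in RNA quality or make-up add to these correlations was not tested. No other gene pairs are given for comparison, so the correlation is not shown to be particular to these 2 genes.

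**Figure D5:**
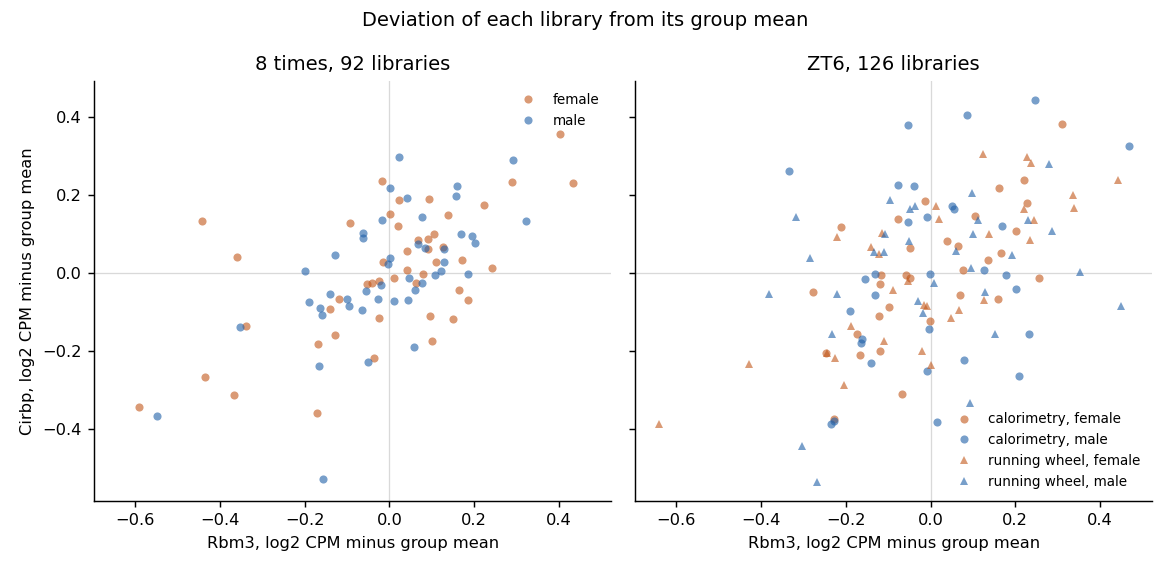
Deviation of Cirbp against that of Rbm3 from the group mean (log2 CPM), 1 point a library, for the atlas (left, r = 0.61) and ZT6 (right, r = 0.48), coloured by sex and with a marker for each set. Points spread along the diagonal in both tables, with more scatter at ZT6.

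The genes most like each member were ranked by the correlation of group means, as a description. Over the 16 sex and time groups of the atlas, among 13155 genes, Rbm3 was most like Ppm1l, Slc45a1 and Rell2 (Pearson r = 0.95 each), Ovol2 and Camk2g (each 0.94), and Cirbp ranked 338 with 0.78. Among the genes most like Cirbp were Cetn3 and Epm2a (each 0.94) and Pms2 (0.93), and Rbm3 ranked 271 for it. Over the 32 groups at ZT6, among 13077 genes, the members were closer to each other. Rbm3 ranked 3 for Cirbp (0.89), after Arl6ip4 and Sp3os (each 0.91) and before Pole3 and Scg5. Cirbp ranked 57 for Rbm3, whose list was led by Ppia and Kcnt2 (each 0.92), Stk3, Pde5a and Sp3os (each 0.91). The groups at ZT6 share the contrast of set, sex and length slope, and those of the atlas share time and sex.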

How the data were processed

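Raw read counts per gene, as deposited by the authors, were used for 92 atlas and 126 ZT6 libraries. The submitters' processing notes name Trim Galore, STAR, SAMtools, limma and mm10. Neither versions nor how reads were assigned to genes (tool, annotation, strand) is stated there, which bears on antisense overlap. Columns were mapped by the labels, and 1 labelled library (running wheel male 12:12 WT/TG replicate 3) was not analysed here.

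Counts were scaled by TMM and tested with edgeR 4.0.16 in R 4.3.3 (filterByExpr, robust quasi-likelihood, Benjamini-Hochberg over all genes, threshold 0.05). CPM are edgeR values with TMM library sizes. The atlas model held sex and 24 h cosine terms, and its adjacent-time steps a model with time as 8 levels. The ZT6 model gave each of the 32 groups a mean and took contrasts averaged over groups. Contrasts within each set, and of set within each sex, were added after the interactions were seen.

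Alternatives were RLE scaling, no filter, DESeq2 1.42.0, limma-voom (limma 3.58.1), each replicate number left out, the replicate block, the length slope as a covariate, each set alone and doubtful libraries left out; leaving out the 2 libraries apart in make-up was chosen after seeing the data. Replicate numbers did not pair samples. The ratio used log2 counts with an offset of 0.5. Permutation tests used 100000 resamples and were two-sided except for the curve of the ratio. No 2 libraries of a group held identical counts (0 of 220 and 0 of 186 pairs). The models were tested on simulated data.

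Named genes were both members, the 5 most alike genes by table, the 2 tested genes on each side and, from each list, the 2 with the smallest p in the rhythm, deletion and light cycle tests; others were named after their values were seen. A few of the genes so chosen are not reported here. Members and lists were chosen with earlier results of these data known. Promoter sequence and shares come from RefSeq on GRCm38.p6, where 1 of 2 members matched.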

Additional observations from a re-analysis of the deposited data

Results flagged for a closer look

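Each group of 4 to 6 libraries was checked once for each gene, and in 4 of these 92 checks 1 library lay far from the others of its group; chance alone gives about 1 in 20. Cirbp in running wheel male 12:12 HET/TG replicate 4 was at 14.8 CPM, where the nearest library had 22.1 and the highest 22.6. Cirbp in the atlas male ZT0 replicate 5 was at 19.3 CPM, against 27.6 for the nearest and 32.4 for the highest. Rbm3 in the atlas female ZT18 replicate 4 was at 28.3 CPM, against 37.9 and 39.04. Rbm3 in the atlas male ZT18 replicate 2 was at 39.95 CPM, against 44.9 and 46.8.

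The 11:11 minus 12:12 difference differed between the sets by -0.29 for Rbm3 and -0.47 for Cirbp (interaction test, edgeR adjusted p = 0.0135 and 2.75e-05). The male minus female difference differed between the sets by 0.81 for Rbm3 and 0.36 for Cirbp (adjusted p = 6.33e-16 and 3.01e-05).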

How the results depend on the processing

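Of 1194 values recomputed for the members, 1114 kept their call, 48 lost it and 26 gained it in the same direction. In all 47 values changed sign, of which 6 passed the threshold before or after the change. The atlas cycle and sex difference passed in every alternative run. With the length slope, the Cirbp differences were -0.0042 for set, -0.068 for set in females, -0.031 for sex, -0.095 for sex on wheels and 0.13 for sex by set, and those of Rbm3 0.30 for sex and -0.26 for light cycle by set. With each set alone, the light cycle difference of Cirbp was -0.23 and 0.24 (calorimetry, running wheel), sex for Rbm3 -0.0059 on wheels, HET/WT against WT/WT for Rbm3 -0.26 and -0.28, HET/TG against WT/WT -0.20 and -0.32, and the deletion -0.18 and -0.22. With no filter, adjusted p passed for Rbm3 under 11:11 (0.10) and in HET/TG against WT/TG (-0.14), and for Cirbp in HET/TG against WT/WT (-0.17), HET/WT against WT/WT (-0.17), deletion by light cycle (-0.23) and the deletion (-0.14). The Cirbp deletion also passed in DESeq2 (-0.14) and with the length slope (-0.16). Over the fits that leave out 1 replicate number, Rbm3 ranged from 0.076 to 0.14 for light cycle, -0.28 to -0.19 for HET/TG against WT/WT, -0.30 to -0.25 for HET/WT against WT/WT, -0.22 to -0.18 for the deletion and -0.37 to -0.21 for light cycle by set. The Pearson correlation in running wheel males passed without 2 animals (0.38), and the Spearman correlation did not (0.30). The replicate block (the numbers pair nothing: deviations of same-numbered libraries correlated at a mean of 0.0058 and 0.012, and 16 of 92 and 37 of 126 libraries were most like one of their own number) gave 0.24 for Cirbp under 11:11 on wheels (adjusted p = 0.054) and changed no other member call. Genes called for the deletion were 41, against 96 in DESeq2, 92 with the length slope, 366 with no filter and 10 to 20 without replicate 1, 2 or 3; for HET/WT 8 against 107 with no filter; for light cycle on wheels 13 against 0 to 21 without a replicate number; for set 11713 against 4557, for sex 10948 against 2083 and for light cycle by set 1003 against 483 with the length slope.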
